A study of Mus musculus with 90 samples.

Results

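The mitosis and cytokinesis genes are a named list of 48 mouse genes whose products drive, check and complete cell division. They were picked by symbol from the 23420 genes of a raw count table of sorted T cells. All 48 are in the table, and all 48 passed the filter on low counts in every fit below. Their level is given as CPM, counts scaled to a common library total, or as log2 CPM with 0.5 added to each count.

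The study sorted T cells from tumours and lymphoid sites of mice and sequenced their RNA in 90 libraries. The regulatory T cell (Treg) series has 30 libraries of genotype WT in 10 groups of 3. Tregs sorted as IL10, as Ebi3 (a subunit of interleukin-35) or as DN, which the labels give as double negative, came from tumour (TIL), from non-draining lymph node (ndLN) and from a source labelled naive, where effector T cells (Teff) were sorted too. The CD8 series has 60 libraries: 5 populations each from 4 DKO, 3 Ebi3L, 2 Il10 and 3 yfp sources.

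In the CD8 series the genotype changes lie in Tregs: DKO lacks IL10 and IL35 there, Il10 and Ebi3L lack one of them, and yfp is taken as the reference. The CD8 cells are therefore read as cells from mice with altered Tregs, not as knockout cells. The populations run from NDLN (non-draining lymph node) through the tumour populations NEG (PD1-negative, TIM3-negative), INT (PD1-intermediate, TIM3-negative) and SP (PD1-high, TIM3-negative) to DP (PD1-high, TIM3-positive), ordered by markers of exhaustion. A source means the 5 libraries of 1 genotype that share a set name, and each set name is carried by sources of 2 genotypes. The sources used here name no tumour line, mouse age or promoter for the Treg-specific deletion. Each fraction was sorted in 2 passes, per the labels, and nothing in them says whether replicate libraries came from separate mice, so a p-value here covers only library-to-library spread.

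Mitosis is driven by cyclin-dependent kinase 1 bound to A- and B-type cyclins, with polo-like and aurora kinases acting on centrosomes, centromeres and the spindle. Kinetochores attach chromosomes to spindle microtubules, the spindle checkpoint holds the anaphase-promoting complex in check until attachment is complete, and the midzone then directs cleavage. These genes are transcribed mostly in G2 and M phase, so in sorted T cells, which rest in the absence of antigen or growth factors, they are widely used as marks of cycling cells.

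Their promoters are shown because the genes moved together in most comparisons and because many cell cycle promoters carry 2 elements: the cell cycle homology region (CHR), written TTTGAA or TTCGAA, and the CCAAT box, bound by NF-Y. Both strands were searched in windows from 250 bases before to 50 bases after each start in RefSeq (GRCm38.p6), where 39 of the 48 genes were found. The 150 bases before the start of 4 of them are printed 5′ to 3′ along the gene, all on the minus strand, with each CHR and CCAAT match on either strand in capitals. Mki67, the proliferation antigen Ki-67, is at chr7:135716380-135716529. Top2a, the topoisomerase that untangles sister chromatids, is at chr11:99024190-99024339. Cdk1, the mitotic kinase, is at chr10:69352913-69353062. Cdc20, the activator of the anaphase-promoting complex, is at chr4:118437344-118437493.
Mki67: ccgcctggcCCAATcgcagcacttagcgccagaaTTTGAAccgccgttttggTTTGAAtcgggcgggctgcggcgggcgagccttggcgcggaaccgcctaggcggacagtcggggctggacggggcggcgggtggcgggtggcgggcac
Top2a: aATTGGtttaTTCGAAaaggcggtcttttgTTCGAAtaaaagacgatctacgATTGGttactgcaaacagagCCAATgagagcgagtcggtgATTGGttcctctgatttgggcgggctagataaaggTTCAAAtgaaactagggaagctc
Cdk1: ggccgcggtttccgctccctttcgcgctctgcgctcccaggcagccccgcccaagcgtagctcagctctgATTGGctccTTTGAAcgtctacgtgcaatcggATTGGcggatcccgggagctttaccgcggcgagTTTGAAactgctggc
Cdc20: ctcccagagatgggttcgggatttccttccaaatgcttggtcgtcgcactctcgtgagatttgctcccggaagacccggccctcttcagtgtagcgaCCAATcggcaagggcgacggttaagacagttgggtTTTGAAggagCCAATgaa

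Of the 39 genes, 30 (76.9%) had a CHR in the window, against 21.7% of 27025 genes in the promoter table. TTTGAA was in 29 of them (74.4%), against 20.2% of all genes, and TTCGAA in 3 (7.69%), against 1.8%. A CCAAT box was in 28 (71.8%), against 41.1% of all genes, and both elements were in 25 (64.1%), against 8.61%. In the printed stretches, Mki67 held 2 TTTGAA matches and 1 CCAAT match, Top2a held 1 TTTGAA, 2 TTCGAA and 4 CCAAT matches, Cdk1 held 2 TTTGAA and 2 CCAAT matches, and Cdc20 held 1 TTTGAA and 2 CCAAT matches. Of other mitosis genes, 62.7% of 51 had a CHR, whereas of S phase genes, which copy DNA, 18.8% of 32 did. CCAAT was in 70.6% of the first and in 53.1% of the second. A match is a description of letters, not a bound site.

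The deposited counts summed to 9.73 to 20.2 M counts per Treg-series library and to 19.2 to 47.7 M per CD8 library, so that 3 counts, taken as the detection floor, were 0.148 to 0.308 CPM in the first and 0.0629 to 0.156 CPM in the second. The labelled cell types were checked with Cd4 (198 to 546 CPM in the Treg series, at most 4.26 CPM in the CD8 series), with Cd8a (at most 11.6 CPM in the Treg series, at least 694 CPM in the CD8 series) and with Foxp3 (29.1 to 157 CPM in Tregs, 15.9 to 29.7 CPM in Teff). The 2 series used different cDNA kits, and their levels are not compared with each other. Several libraries stood apart in these genes. Teff library 2 had a mean log2 CPM over the 48 genes of 2.72, whereas the other Teff libraries had -0.52 and -0.32. The ndLN Ebi3 library 3 held 214 CPM of summed myeloid markers, 190 CPM of it Lyz2. Among CD8 libraries, DKO source 1 had a mean of -0.58 in NDLN, and yfp source 2 had 0.82 in NEG.

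Levels across the Treg series were highest in Ebi3 Tregs at every site. The mean log2 CPM over the 48 genes was 5.53 ± 0.62 in TIL IL10, 6.62 ± 0.56 in TIL Ebi3 and 5.66 ± 0.38 in TIL DN Tregs (SD, n = 3 in each group here). In ndLN it was 6.04 ± 0.07 in IL10, 6.81 ± 0.26 in Ebi3 and 4.46 ± 0.75 in DN Tregs. From naive sources it was 5.44 ± 0.82 in IL10, 6.55 ± 0.18 in Ebi3 and 3.18 ± 0.41 in DN Tregs, and 0.63 ± 1.82 in Teff. In order, neighbours among the 3 Ebi3 groups lay within 1 SD of each other, ndLN IL10 followed, then TIL DN, TIL IL10 and naive IL10 within 1 SD of each other, and ndLN DN, naive DN and Teff closed the order. Single genes kept close to it: 33 were highest in ndLN Ebi3, 12 in TIL Ebi3 and 3 in naive Ebi3 Tregs, while 44 were lowest in Teff and 4 in naive DN Tregs. Fewer dividing cells and less mitotic RNA per cell cannot be told apart in such bulk libraries.

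**Figure D1:**
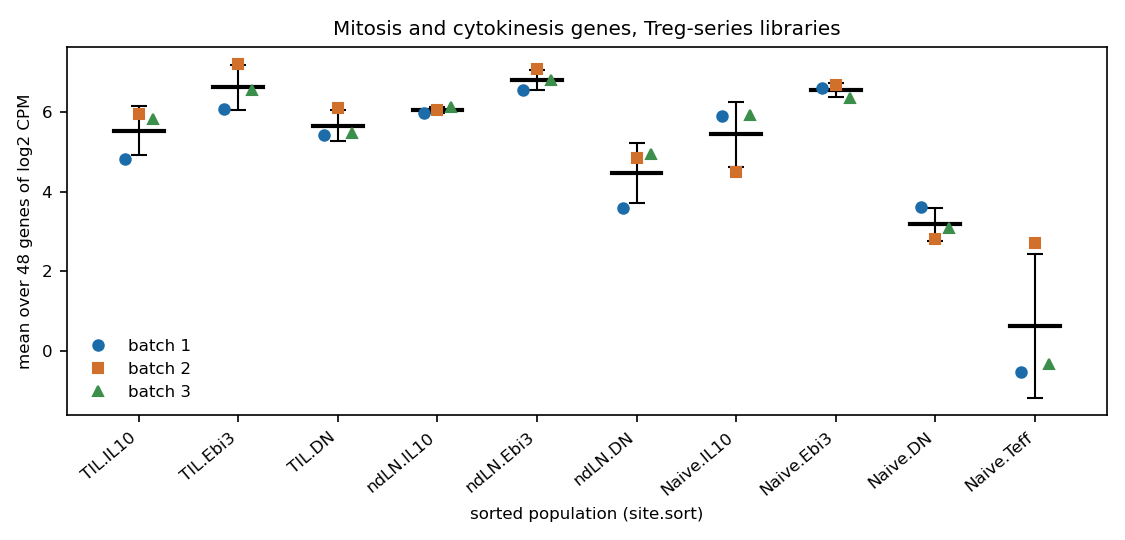
Mean over the 48 genes of log2 CPM (vertical axis) in each Treg-series library, by group (horizontal axis, IL10, Ebi3 and DN sorts at each site, then Teff); points are libraries by batch, bars are group means and whiskers are SD (n = 3). DN Tregs lie below the cytokine-sorted Tregs in ndLN and naive sources but at the level of IL10 Tregs in tumour, and Teff library 2, at 2.72, lies above the other Teff libraries.

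Naive DN Tregs were compared with Teff of the same source to ask how far division genes differ between these sorts. Of the 48 genes, 16 were higher in naive DN Tregs and 0 were lower (edgeR quasi-likelihood test, Benjamini-Hochberg adjusted p under 0.05 over 12907 genes), where 8.79% of all genes were higher and 3.42% lower. The median log2 fold change of the 48 was 1.84, with 44 above 0. The median over all genes tested lay within -0.06 and 0.05 in every comparison of this text. Higher were 4 of 10 kinases and cyclins, 2 of 3 chromosomal passenger genes, 3 of 7 kinetochore genes and 3 of 7 midzone genes, but 1 of 10 spindle genes.

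Bub1, a checkpoint kinase at kinetochores, stood at 18.1, 5.87 and 5.76 CPM in naive DN Tregs, against 0, 0.206 and 0.0679 CPM in Teff. Its groups did not overlap, and it rose by 6.95 ± 0.85 on the log2 scale (SE, adjusted p = 1.91e-06). The Teff values, at 0, 2 and 1 counts, all lay under the floor of 3 counts. Ttk, the kinase that starts the spindle checkpoint, stood at 3.98, 3.73 and 0 CPM in naive DN Tregs and had 0 counts in every Teff library, which makes it at least 10.8-fold higher by group means against the floor, though 1 DN library was at 0 as well. Mki67 stood at 36.0, 23.6 and 22.1 CPM in naive DN Tregs, against 0.409, 17.8 and 0.204 CPM in Teff. The 3 DN libraries were all higher, but Teff library 2 came close, and Mki67 rose by 2.57 ± 0.74 (adjusted p = 0.0278). Anln, an actin-binding scaffold of the cleavage furrow, rose by 5.66 ± 0.88 (adjusted p = 3.7e-05). Cdc25c, the phosphatase that switches on Cdk1, rose by 5.66 ± 1.26. It stood at 2.78, 0 and 2.01 CPM in naive DN Tregs, against 0.0682, 0 and 0 CPM in Teff. The groups overlapped at 0, and all Teff values lay under the floor. Among the smallest changes, Plk4, which duplicates centrioles, rose by 1.64 ± 0.28, and Kif20a, a midzone motor, rose by 0.90 ± 0.30.

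Without Teff library 2, a choice made after seeing the data, 33 of the 48 genes were higher. Without batch 1, 2 or 3, the counts were 5, 34 and 7. The shares of all genes in these refits are not given here, so the changes in count are not read as particular to the 48 genes. Within batches, the mean over the 48 genes differed by 0.10 to 4.14, the lowest in batch 2, which holds Teff library 2. B cell markers (10 of 10 in the table) summed to 33.2 to 83.1 CPM in naive DN Tregs, against 1.54 to 6.20 CPM in Teff, with Pax5 at 0 in every library of the Treg series. Plasma cell markers (4 of 5 in the table) summed to 234 to 263 CPM in naive DN Tregs, against 91.6 to 140 CPM in Teff, with Sdc1, Mzb1 and Tnfrsf17 at 0 in both, so that the sum is Xbp1 alone. Their part in the result was not tested. Of S phase genes, 17 of 41 were higher in naive DN Tregs, and of other mitosis genes 20 of 66. Of 16 genes listed as cell cycle inhibitors 2 were higher and 1 was lower. That list also holds Lin9, Lin37, Lin52 and Lin54, so its counts need not be of inhibitors alone.

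Cytokine-sorted Tregs from naive sources had far more mitotic RNA than DN Tregs of the same source. Of the 48 genes, 35 were higher in IL10 Tregs, where 9.98% of all genes were higher and 7.85% lower, and 47 in Ebi3 Tregs, where 7.4% were higher and 5.45% lower. None of the 48 was lower in either. The median log2 fold changes were 2.08 for IL10 and 3.00 for Ebi3 Tregs, with 48 of 48 above 0 in both. Both comparisons rest on the same 3 DN libraries, so they are not independent of each other. In Ebi3 Tregs every role was represented in full except the midzone, where Anln differed by 1.72 ± 0.62 (adjusted p = 0.067). In IL10 Tregs the genes that passed included 8 of 10 kinases and cyclins, 3 of 3 passenger genes and 9 of 10 spindle genes, but 3 of 6 checkpoint and anaphase genes and 4 of 7 kinetochore genes.

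Among the kinases, Cdk1 stood at 134, 25.1 and 97.7 CPM in IL10, at 213, 186 and 115 CPM in Ebi3 and at 15.6, 4.62 and 17.4 CPM in DN Tregs. Every cytokine-sorted library lay above every DN library, and IL10 library 2 was the lowest of them. Cdk1 rose by 2.81 ± 0.86 in IL10 Tregs (adjusted p = 0.028) and by 3.62 ± 0.89 in Ebi3 Tregs (adjusted p = 0.00903). Plk1, the polo-like kinase of centrosomes and kinetochores, stood at 35, 18.8 and 61.0 CPM in IL10, at 108, 115 and 80.6 CPM in Ebi3 and at 8.03, 2.84 and 17.7 CPM in DN Tregs. Groups did not overlap, and Plk1 rose by 2.02 ± 0.60 in IL10 and 3.35 ± 0.63 in Ebi3 Tregs. Ccnb1, the cyclin B1 partner of Cdk1, rose in Ebi3 Tregs by 2.80 ± 0.86 (adjusted p = 0.0369). Nek2, which splits centrosomes, had 0 counts in 1 DN library and was among the largest changes, at 3.26 ± 0.80 in IL10 and 4.13 ± 0.82 in Ebi3 Tregs.

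Of the chromosomal passenger complex, which corrects attachments and later marks the midzone, Aurkb (its kinase) stood at 95.1, 27.2 and 76.0 CPM in IL10, at 157, 130 and 98.5 CPM in Ebi3 and at 30.7, 3.82 and 7.51 CPM in DN Tregs. IL10 library 2 fell just below the highest DN library, while Ebi3 and DN Tregs did not overlap. Aurkb rose by 2.24 ± 0.70 in IL10 and by 3.07 ± 0.72 in Ebi3 Tregs. Birc5, survivin, which anchors the complex, rose by 2.63 ± 0.62 in IL10 and by 3.31 ± 0.64 in Ebi3 Tregs.

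Among checkpoint and anaphase genes, Espl1, the separase that cuts cohesin, stood at 9.42, 6.91 and 20.7 CPM in IL10 and at 30.3, 21.2 and 16.5 CPM in Ebi3 Tregs and had 0 counts in every naive DN library. Against the floor it was at least 56.9-fold higher in IL10 and at least 104-fold higher in Ebi3 Tregs. It passed the test in both (adjusted p = 1.72e-05 in IL10 and 1.63e-05 in Ebi3 Tregs). Cdc20 stood at 97.1, 42.1 and 116 CPM in IL10, at 156, 162 and 160 CPM in Ebi3 and at 37.4, 17.2 and 22.1 CPM in DN Tregs. No group overlapped the DN libraries, and Cdc20 rose by 1.71 ± 0.43 in IL10 and by 2.51 ± 0.44 in Ebi3 Tregs.

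Spindle motors gave some of the largest changes. Kif4, a chromosome-bound kinesin, rose by 3.67 ± 1.12 in IL10 and by 4.59 ± 1.15 in Ebi3 Tregs. Hmmr, a spindle-pole protein, stood at 62.0, 13.4 and 41.0 CPM in IL10, at 84.9, 107 and 70.3 CPM in Ebi3 and at 5.63, 4.62 and 0.194 CPM in DN Tregs. The groups did not overlap, and Hmmr rose by 3.59 ± 0.86 in IL10 and by 4.55 ± 0.88 in Ebi3 Tregs. Stmn1, stathmin, a tubulin-binding protein, rose by 1.54 ± 0.43 in IL10 and by 2.59 ± 0.44 in Ebi3 Tregs. Cenpa, the histone that marks centromeres, gave one of the smallest changes in Ebi3 Tregs, at 1.55 ± 0.22 (adjusted p = 2.1e-05): it stood at 246, 207 and 168 CPM, against 66.0, 75.0 and 59.4 CPM in DN Tregs. The midzone motors Kif20b and Kif20a gave the smallest in IL10 Tregs, at 0.95 ± 0.30 and 0.83 ± 0.29.

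Mki67 stood at 212, 124 and 215 CPM in IL10, at 302, 315 and 241 CPM in Ebi3 and at 36.0, 23.6 and 22.1 CPM in DN Tregs, with no overlap with DN. It rose by 2.77 ± 0.66 in IL10 (adjusted p = 0.00572) and by 3.27 ± 0.67 in Ebi3 Tregs (adjusted p = 0.00249). Top2a rose by 2.85 ± 0.73 in Ebi3 Tregs. Foxm1, the forkhead factor that activates G2 and M genes, stood at 27.3, 12.1 and 12.9 CPM in IL10, at 39.3, 38.0 and 31.8 CPM in Ebi3 and at 1.90, 1.42 and 4.34 CPM in DN Tregs. Its groups did not overlap DN, and it rose by 2.95 ± 0.65 in IL10 and by 3.83 ± 0.66 in Ebi3 Tregs.

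The counts depended on which libraries entered. Without batch 1, 2 or 3, 21, 38 and 5 genes were higher in IL10 Tregs, and 32, 43 and 19 in Ebi3 Tregs. Cenpa, Espl1, Foxm1 and Kif15 passed in every such fit for IL10, and 17 of 47 genes did for Ebi3. Within batches the mean over the 48 genes was higher by 1.67 to 2.83 in IL10 and by 2.99 to 3.86 in Ebi3 Tregs. Of other mitosis genes, 32 of 66 were higher and 2 lower in IL10, and 50 higher and 1 lower in Ebi3 Tregs; of S phase genes, 14 of 41 were higher in IL10 and 35 in Ebi3 Tregs. Myeloid markers (13 of 15 in the table) summed to 8.90 to 35.4 CPM in IL10, to 3.69 to 29.9 CPM in Ebi3 and to 1.24 to 5.44 CPM in DN Tregs, and B cell markers to 57.6 to 77.6, 68.9 to 89.9 and 33.2 to 83.1 CPM in that order, with Pax5 at 0. Their part in the result was not tested.

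**Figure D2:**
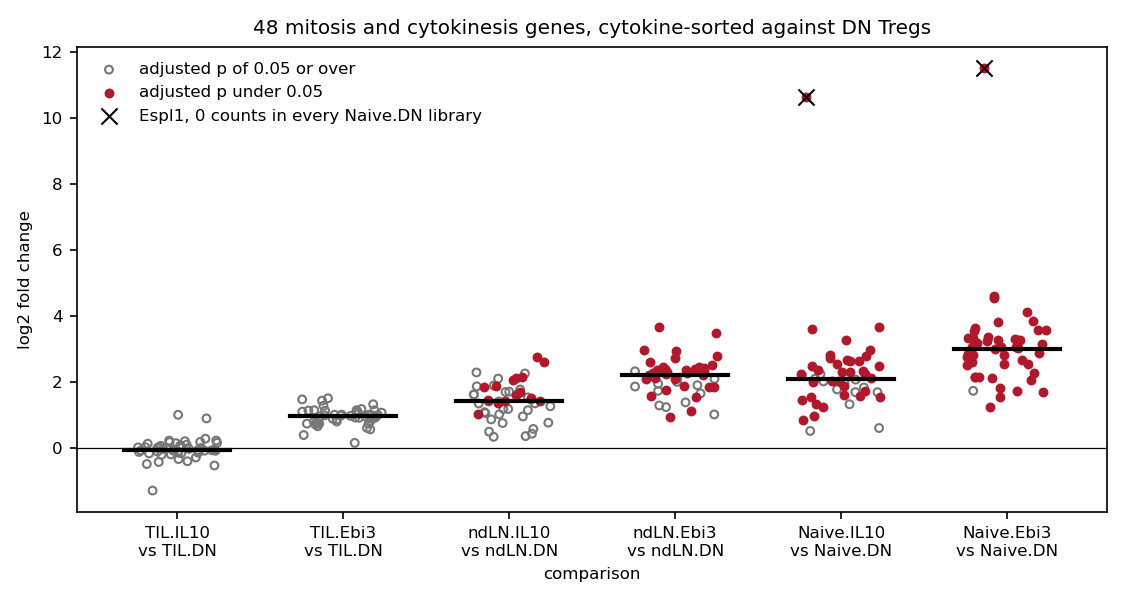
Log2 fold change (vertical axis) of each of the 48 genes in IL10 and Ebi3 Tregs over DN Tregs of the same site (horizontal axis); filled points have an adjusted p under 0.05, bars are medians, and a cross marks Espl1, with 0 counts in every naive DN library. Medians were -0.06 and 0.96 in tumour, 1.43 and 2.20 in ndLN and 2.08 and 3.00 in naive sources.

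In ndLN both cytokine sorts were again above DN Tregs; whether the fold changes differ from those in naive sources was not tested. Of the 48 genes, 15 were higher in IL10 Tregs (8.81% of all genes were, and 7.37% were lower) and 34 in Ebi3 Tregs (6.96% of all genes were, and 6.07% were lower), 0 of the 48 were lower, and the medians were 1.43 and 2.20. Within batches the mean over the 48 genes was higher by 1.17 to 2.37 in ndLN IL10 and by 1.85 to 2.95 in ndLN Ebi3 Tregs, and in batch 1 IL10 minus DN was 2.37 in ndLN and 2.28 in naive sources. These 2 comparisons also share their 3 DN libraries. In Ebi3 Tregs, 6 of 10 kinases and cyclins, 3 of 3 passenger genes, 7 of 10 spindle genes and 6 of 7 midzone genes passed. In IL10 Tregs, 4 kinases and cyclins, 2 passenger, 3 kinetochore, 3 spindle, 2 midzone and 1 checkpoint gene passed, and 0 of the chromosome genes or transcription factors did.

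Ska1, which holds kinetochores on shortening microtubules, stood at 29.4, 21.8 and 23.8 CPM in ndLN IL10, at 35.7, 46.4 and 47.3 CPM in ndLN Ebi3 and at 1.46, 4.47 and 5.35 CPM in ndLN DN Tregs. The DN libraries lay far below the others, and Ska1 rose by 2.76 ± 0.76 in IL10 (adjusted p = 0.014) and by 3.48 ± 0.78 in Ebi3 Tregs (adjusted p = 0.00359). Spc25, of the NDC80 complex that binds microtubules, rose by 2.11 ± 0.44 in IL10 Tregs, with 68.4, 68.6 and 106 CPM, against 17.7, 13.7 and 25.4 CPM in DN Tregs. Anln stood at 13.3, 13.2 and 29.7 CPM in IL10, at 29.8, 57.0 and 29.7 CPM in Ebi3 and at 1.65, 1.84 and 5.86 CPM in DN Tregs. It rose by 2.61 ± 0.64 in IL10 and by 3.67 ± 0.67 in Ebi3 Tregs, the widest change of the 34. Aurkb rose by 2.04 ± 0.69 in IL10 (adjusted p = 0.049) and by 2.95 ± 0.71 in Ebi3 Tregs. Cdk1 rose by 2.94 ± 0.85 in Ebi3 Tregs.

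Mki67 stood at 223, 218 and 236 CPM in ndLN IL10, at 276, 372 and 315 CPM in ndLN Ebi3 and at 39.3, 98.8 and 82.7 CPM in ndLN DN Tregs. Neither sort overlapped DN, yet the difference passed in Ebi3 Tregs (2.12 ± 0.64, adjusted p = 0.034) and did not in IL10 Tregs (1.70 ± 0.63, adjusted p = 0.0758). The smallest changes that passed were Cenpa in both sorts (1.01 ± 0.22 in IL10 and 1.11 ± 0.22 in Ebi3 Tregs) and Kif20b in Ebi3 Tregs (0.93 ± 0.30). Ccnb1 (1.72 ± 0.81, adjusted p = 0.188) and Cdc20 (1.23 ± 0.42, adjusted p = 0.0548) did not pass in Ebi3 Tregs.

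Without batch 1, 2 or 3, 8, 22 and 6 genes were higher in ndLN IL10 Tregs and 18, 29 and 13 in ndLN Ebi3 Tregs. Without ndLN Ebi3 library 3, which held the myeloid RNA, 21 genes were higher in Ebi3 Tregs. Myeloid markers summed to 19.1 to 29.0 CPM in IL10, to 2.69 to 214 CPM in Ebi3 and to 2.37 to 4.43 CPM in DN Tregs, in which 9 of 13 were at 0, Lyz2 and Csf1r among them. B cell markers summed to 52.8 to 107 CPM in IL10, to 64.6 to 104 CPM in Ebi3 and to 18 to 57.0 CPM in DN Tregs, with Pax5 at 0 in all. Their part in the result was not tested. Of S phase genes, 23 of 41 were higher in IL10 and 37 in Ebi3 Tregs, and of other mitosis genes 26 of 66 were higher and 2 lower in IL10 and 46 higher and 1 lower in Ebi3 Tregs.

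In tumour no gene of the list separated either cytokine sort from DN Tregs past the threshold. None of the 48 genes passed in IL10 against DN Tregs (0.837% of all genes did in either direction), with a median log2 fold change of -0.06 and 19 above 0; edgeR gave 0 at an unadjusted p under 0.05 and DESeq2 0 adjusted. In Ebi3 against DN Tregs all 48 fold changes were above 0, with a median of 0.96, but 0 passed in edgeR (0.713% of all genes did in either direction), 12 had an unadjusted p under 0.05 and DESeq2 called 1. Mki67 stood at 118, 233 and 186 CPM in TIL IL10, at 200, 479 and 305 CPM in TIL Ebi3 and at 164, 221 and 166 CPM in TIL DN Tregs. IL10 and DN overlapped, and Ebi3 and DN overlapped only through Ebi3 library 1. Within batches, the mean over the 48 genes in TIL IL10 minus DN ran from -0.59 to 0.35, and in TIL Ebi3 minus DN from 0.68 to 1.11.

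The site dependence itself was tested as the fold change in tumour minus that in ndLN. For IL10 against DN, 4 of the 48 genes were lower in tumour, where 2.5% of all genes were: Plk4 by -1.51 ± 0.38 (adjusted p = 0.0193), Cenpa by -1.13 ± 0.30 (adjusted p = 0.0283), Spc25 by -2.20 ± 0.61 (adjusted p = 0.0372) and Kif15, a spindle kinesin, by -1.79 ± 0.49 (adjusted p = 0.0323). The median over the 48 was -1.52, with 0 above 0. For Ebi3 against DN, Kif15 alone passed, by -2.06 ± 0.49 (adjusted p = 0.0238), where 0.968% of all genes were lower, and the median was -1.20. Without the batch term, 0 passed in either. Without batch 1, 2 or 3, 0, 4 and 1 passed for IL10 and 0 each time for Ebi3, and without ndLN Ebi3 library 3, 0 passed for Ebi3.

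Kif15 shows the pattern by library. It stood at 28.9, 62.0 and 47.5 CPM in TIL IL10, at 57.1, 116 and 82.7 CPM in TIL Ebi3 and at 47.6, 70.3 and 71.2 CPM in TIL DN Tregs. In ndLN it stood at 48.6, 43.4 and 59.9 CPM in IL10, at 89.4, 132 and 127 CPM in Ebi3 and at 20.3, 23.7 and 16.9 CPM in DN Tregs. The DN libraries were within the range of the other sorts in tumour and below both sorts in ndLN.

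DN Tregs were also compared between sites; the same 6 DN libraries enter the tumour minus ndLN differences above, so this comparison is not independent of them. Of the 48 genes, 11 were higher in TIL than in ndLN DN Tregs, where 12.9% of all genes were and 10.5% were lower, 0 of the 48 were lower, and the median was 1.27 with 48 above 0. Ska1 stood at 13.5, 26.6 and 26.1 CPM in TIL DN, against 1.46, 4.47 and 5.35 CPM in ndLN DN Tregs, and rose by 2.68 ± 0.76 (adjusted p = 0.0119). Cenpa stood at 345, 247 and 286 CPM in TIL DN, against 107, 92.6 and 119 CPM in ndLN DN Tregs, and rose by 1.58 ± 0.22 (adjusted p = 4.21e-06). Neither gene's groups overlapped. Aurkb rose by 1.97 ± 0.69, Anln by 1.86 ± 0.63 and Kif15 by 1.75 ± 0.35. The smallest changes were Plk4, by 1.36 ± 0.27, and Racgap1, the centralspindlin subunit that positions the furrow, by 1.18 ± 0.35. Mki67 differed by 1.48 ± 0.63 and did not pass (adjusted p = 0.0975). Without batch 1, 2 or 3, 10, 14 and 4 genes passed, and of S phase genes 26 of 41 were higher in TIL DN Tregs. Myeloid markers summed to 6.39 to 22.2 CPM in TIL DN, against 2.37 to 4.43 CPM in ndLN DN Tregs, with Csf1r at 0 in both, and plasma cell markers to 273 to 314 CPM, against 159 to 245 CPM, with Tnfrsf17 at 0 in both. Neither list's groups overlapped, and their part in the result was not tested.

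For IL10 and Ebi3 Tregs 0 of the 48 genes passed between sites. Whether their site changes differ from those of DN Tregs was tested only for tumour against ndLN, as given above. There 4 genes passed for IL10 and 1 for Ebi3, and 0 of these in every fit without 1 batch. Against ndLN, 0 of 48 passed in TIL IL10 Tregs (9.32% of all genes did, median -0.26, 2 at an unadjusted p under 0.05, DESeq2 0) and 0 in TIL Ebi3 Tregs (10.3% of all genes did, median -0.00, 1 unadjusted, DESeq2 1). Between ndLN and naive sources, 0 passed in IL10 Tregs (0.0542% of all genes did, median 0.35) and in Ebi3 Tregs (0.00775%, median 0.26), with 0 unadjusted and 0 by DESeq2 in both. In ndLN against naive DN Tregs, Espl1 alone passed (0.0852% of all genes were higher). It stood at 0.132, 27.6 and 6.03 CPM in ndLN DN Tregs and had 0 counts in every naive DN library, which makes it at least 52.0-fold higher; without batch 2 or batch 3 it did not pass. The median over the 48 was 1.07.

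IL10 Tregs had lower means of the 48 genes than Ebi3 Tregs at each site, but single genes mostly did not pass. In tumour all 48 fold changes were below 0 with a median of -0.94, but 1 gene passed, where 1.07% of all genes were lower. That gene was Kif20a, at 40.1, 82.5 and 57.5 CPM in TIL IL10, against 102, 203 and 108 CPM in TIL Ebi3 Tregs. The groups did not overlap, and Kif20a fell by 1.13 ± 0.29 on the log2 scale (adjusted p = 0.0328). Without batch 1, 2 or 3 it did not pass. In ndLN 0 passed (5.07% of all genes did in either direction, median -0.71, 3 unadjusted, DESeq2 1), and in naive sources 0 passed (5.48%, median -0.82, 9 unadjusted, DESeq2 1); without batch 1, 2 passed in naive sources. Within batches the mean over the 48 genes was lower in IL10 Tregs in 3 of 3 batches at each site, by -1.27 to -0.74 in tumour, -1.02 to -0.58 in ndLN and -2.19 to -0.43 in naive sources.

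The 48 genes lay furthest below S phase genes in groups where the 48 themselves were low. The mean log2 CPM of the 48 minus that of the S phase genes was -2.59 in Teff, -1.43 in naive DN and -0.29 in ndLN DN Tregs, and lay between -0.19 and 0.14 in the other Treg groups. In CD8 cells, from NDLN to DP, it was -2.27, -0.95, -0.24, -0.11 and -0.03 in DKO sources, -1.54, -1.56, -0.55, -0.53 and -0.51 in Ebi3L sources, -3.60, -3.27, -0.37, -0.14 and 0.17 in Il10 sources and -1.79, -1.93, -0.53, -0.14 and -0.16 in yfp sources. Ebi3L sources stayed between -0.55 and -0.51 from INT to DP while their mean of the 48 went on climbing. Batch 3 holds 2 of the 3 Ebi3L sources and 1 yfp source, and the part of the batch in this was not tested. These are differences between means over different genes, and the level of the 48 enters both quantities, so they describe only how the groups differ.

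In CD8 T cells the 48 genes were lowest in lymph node and higher in each tumour population up to DP. The mean log2 CPM in NDLN, NEG, INT, SP and DP was 2.12 ± 1.97, 4.34 ± 1.27, 5.81 ± 1.06, 6.31 ± 0.86 and 7.12 ± 0.34 in DKO sources (SD, n = 4). It was 3.07 ± 0.86, 3.13 ± 0.89, 4.79 ± 0.16, 5.78 ± 0.68 and 6.29 ± 0.34 in Ebi3L sources (n = 3), and 0.37 ± 0.73, 1.76 ± 0.37, 5.74 ± 0.48, 6.84 ± 0.61 and 7.49 ± 0.21 in Il10 sources (n = 2). In yfp sources (n = 3) it was 2.51 ± 1.58, 3.40 ± 2.32, 5.26 ± 0.80, 6.52 ± 0.36 and 7.05 ± 0.41. In 12 of 12 sources INT was above NEG, SP above INT and DP above SP. NEG was above NDLN in 9 of 12, the exceptions being yfp source 2 and Ebi3L sources 2 and 3. Batch 3, which holds Ebi3L sources 2 and 3 and yfp source 3, was low for many of the genes in DP. All 3 of its libraries were below all 9 others for 22 of the 48 genes in DP. The same held for 6 in SP, 5 in INT, 1 in NDLN and 0 in NEG. Mki67 in DP, for example, stood at 136 to 288 CPM in batch 3 and at 826 to 1565 CPM in the other batches. Batch 3 was above all 9 others for 1 gene in DP, Stmn1, and for 0 in the other populations. The share over all genes is not given here, so these counts are not read as particular to the 48 genes.

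**Figure D3:**
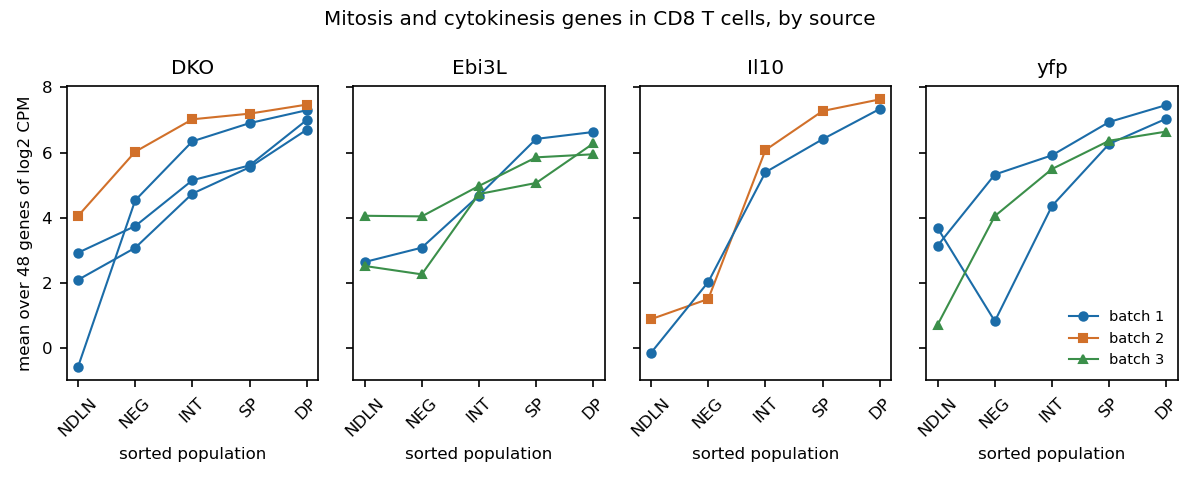
Mean over the 48 genes of log2 CPM (vertical axis) along the sorted populations NDLN to DP (horizontal axis), 1 line per source, coloured by batch, in panels DKO, Ebi3L, Il10 and yfp. DP is the highest point of all 12 lines; DKO source 1 starts at -0.58 in NDLN, and yfp source 2 dips to 0.82 in NEG.

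DP against NEG, the ends of the sort by exhaustion markers within tumour, was tested within each genotype with 3 or more sources. Of the 48 genes, 46 were higher in DKO (21.4% of all genes were higher and 20% lower), 39 in Ebi3L (17.6% and 15.7%) and 25 in yfp sources (17.2% and 16%), and 0 were lower in any. The median log2 fold changes were 2.60, 2.83 and 2.73 in that order, so the counts differed more than the sizes did. In yfp sources DESeq2 gave 38, and edgeR without the filter on low counts gave 16. The Il10 genotype, with 2 sources, was not fitted alone; there the mean over the 48 genes was higher in DP by 5.31 and 6.13. By source, DP was above NEG in 12 of 12 for 46 of the 48 genes.

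Among kinases and cyclins, 10 of 10 passed in DKO, 7 in Ebi3L and 6 in yfp. Plk1 stood at 192, 269, 128 and 189 CPM in DP of DKO sources, against 6.38, 54.5, 10.7 and 11.4 CPM in NEG. The populations did not overlap, and Plk1 rose by 3.68 ± 0.57 (adjusted p = 7.88e-05). In yfp sources it stood at 198, 122 and 69.2 CPM in DP, against 33.6, 4.73 and 12.7 CPM in NEG, and rose by 2.91 ± 0.80 (adjusted p = 0.0176). Ccnb1 rose by 3.82 ± 0.71 in DKO and by 3.92 ± 0.99 in Ebi3L sources, and Cdk1 by 2.85 ± 0.78 in DKO, 3.69 ± 0.61 in Ebi3L and 3.04 ± 0.76 in yfp sources. Cdc25c gave the largest change in yfp sources, 4.54 ± 1.53 (adjusted p = 0.0419), with the widest error.

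Among kinetochore and checkpoint genes, Bub1 in Ebi3L sources stood at 115, 81.2 and 67.2 CPM in DP, against 9.50, 3.84 and 3.93 CPM in NEG, and rose by 4.10 ± 0.40 (adjusted p = 1.45e-06). Nuf2, of the NDC80 complex, rose by 5.38 ± 1.01 in Ebi3L and by 3.56 ± 1.05 in yfp sources. Ttk rose by 4.43 ± 1.09 in DKO and by 3.66 ± 1.15 in yfp sources. Cdc20 rose by 2.95 ± 0.57 in DKO, 2.81 ± 0.43 in Ebi3L and 2.58 ± 0.62 in yfp sources. All 6 checkpoint and anaphase genes and all 7 kinetochore genes passed in DKO, 5 and 5 in Ebi3L, and 3 and 6 in yfp sources.

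Of the chromosomal passenger complex, 3 of 3 genes passed in DKO and in Ebi3L and 0 of 3 in yfp sources. Aurkb stood at 224, 143 and 116 CPM in DP of yfp sources, against 57.7, 2.38 and 26.2 CPM in NEG. The populations did not overlap, but the spread in NEG was wide and the difference of 2.49 ± 1.19 did not pass (adjusted p = 0.136). Aurkb rose by 3.29 ± 0.67 in DKO and by 2.84 ± 0.72 in Ebi3L sources. Birc5 differed by 2.74 ± 0.96 in yfp (adjusted p = 0.0506) and rose by 2.58 ± 0.76 in DKO and by 2.87 ± 0.56 in Ebi3L sources.

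Mki67 stood at 1565, 927, 867 and 1379 CPM in DP of DKO sources, against 211, 405, 95.1 and 133 CPM in NEG, and rose by 2.65 ± 0.92 (adjusted p = 0.0321). In Ebi3L sources it stood at 1020, 272 and 136 CPM in DP, against 148, 20.3 and 49.9 CPM in NEG; the lowest DP value was below the highest NEG value, yet each source was higher in DP, and Mki67 rose by 2.69 ± 0.53. In yfp sources it stood at 1494, 1334 and 288 CPM in DP, against 432, 19.8 and 102 CPM in NEG, and differed by 2.27 ± 0.87 (adjusted p = 0.0693). Populations overlapped in Ebi3L and yfp but not in DKO sources. Top2a rose in all 3 genotypes, by 2.34 ± 0.62 in DKO, 2.45 ± 0.53 in Ebi3L and 2.19 ± 0.72 in yfp sources.

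Spindle genes passed in 10 of 10 cases in DKO and in Ebi3L and in 3 of 10 in yfp sources. Stmn1 rose by 1.57 ± 0.45 in DKO, one of the smallest changes there, and by 2.20 ± 0.42 in Ebi3L sources. Of midzone genes 5 of 7 passed in each of the 3 genotypes. Kif20b gave a small change in Ebi3L (1.15 ± 0.29) and in yfp sources (1.26 ± 0.27), and Kif23, the motor subunit of centralspindlin, one of 1.44 ± 0.39 in Ebi3L sources. Ect2, the exchange factor that starts furrowing, did not pass in DKO sources (2.21 ± 0.96, adjusted p = 0.077).

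Leaving out single sources moved the counts. Without source 1, 2 or 3, 16, 33 and 8 of the 48 genes passed in yfp sources, and 26, 29 and 38 in Ebi3L sources. Without DKO source 1, 2, 3 or 4, 45, 40, 29 and 23 passed. Called in every such fit were 19 of the 46 in DKO, 22 of the 39 in Ebi3L and 5 of the 25 in yfp sources (Ndc80, Ska1, Plk4, Cenpa and Kif23). S phase genes were higher in DP in 38 of 41 cases in DKO, 37 in Ebi3L and 30 in yfp sources, and other mitosis genes in 55, 46 and 35 of 66. Of the genes listed as cell cycle inhibitors, which include Lin9, Lin37, Lin52 and Lin54, 3, 4 and 4 were higher and 4 lower in each genotype.

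B cell markers moved the other way: they summed to 1.88 to 21.1 CPM in DP and 41.6 to 55.5 CPM in NEG of DKO sources, and to 0.418 to 2.29 CPM in DP and 43.0 to 62.2 CPM in NEG of yfp sources, with Ms4a1 and Pax5 at 0 in each. Treg markers (5 of 5 in the table) moved with the 48 genes, at 1011 to 1508 CPM in DP and 245 to 543 CPM in NEG of DKO sources, while Foxp3, the defining one, was at 0 to 3.08 CPM over all CD8 libraries. Plasma cell markers moved with the 48 genes too and did not overlap in any genotype: they summed to 199 to 284 CPM in DP and 83.7 to 104 CPM in NEG of DKO, to 121 to 241 and 54.8 to 108 CPM in Ebi3L, to 176 to 223 and 75.3 to 115 CPM in Il10, and to 119 to 202 and 52.4 to 115 CPM in yfp sources. In NEG of each genotype Sdc1, Mzb1 and Tnfrsf17 were at 0, so that the sum there is Xbp1 alone. NK cell markers (6 of 6 in the table) were at 216 to 384 CPM in DP and 136 to 195 CPM in NEG of Ebi3L sources, with Ncr1 at 0 in DP, and overlapped in the other genotypes. Myeloid markers overlapped between DP and NEG in each genotype, at 46.7 to 115 CPM in DP and 16.4 to 96.0 CPM in NEG of yfp sources. The part of the Treg-marker genes other than Foxp3, and of the plasma and NK cell markers, in the result was not tested.

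Between neighbouring populations few genes passed in the fits described here, and the counts moved with the setting. Without the filter on low counts, Ebi3L sources gave 4, 33, 29 and 8 genes over the 4 steps from NDLN to DP, against 0, 3, 2 and 1 with it. The share of all genes without the filter is not given here. DESeq2 gave 16 for NEG against NDLN in DKO sources, and 11 for INT against NEG and 6 for SP against INT in Ebi3L sources. These fits have the batch but not the set as a term, although the 5 libraries of a source share a set; with the set as a block, INT against NEG gave 1 in DKO and 6 in Ebi3L sources, and DP against SP gave 4 in DKO sources. NEG against NDLN gave 7 higher genes in DKO sources (4.16% of all genes were), 2 in yfp sources (1.32%) and 0 in Ebi3L sources (1.44% in either direction; 1 at an unadjusted p under 0.05 in edgeR, DESeq2 0). In DKO sources these were Nek2 (3.93 ± 1.10), Cenpf, a kinetochore protein (3.27 ± 0.84), Melk, a kinase of dividing cells (2.89 ± 0.76), Espl1 (2.53 ± 0.73), Tpx2, a spindle assembly factor (2.37 ± 0.64), Stmn1 (1.85 ± 0.46) and Aurka, the spindle-pole aurora kinase (1.71 ± 0.41). Without any 1 of the 4 DKO sources, 3, 1, 3 and 3 passed. In yfp sources the 2 were Ndc80 (1.35 ± 0.28) and Cenpa (1.28 ± 0.23). Without yfp source 2, whose NEG library was the low one, 23 passed in yfp sources, and without source 1 or 3, 1 and 0.

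INT against NEG gave 3 higher genes in Ebi3L sources (1.22% of all genes were): Bub1 (2.49 ± 0.37), Ccnb2, cyclin B2 (2.35 ± 0.43), and Cenpa (1.26 ± 0.21). It gave 0 in DKO (0.0395% in either direction; 26 unadjusted in edgeR, DESeq2 6) and 0 in yfp sources (0.938%; 2 unadjusted, DESeq2 2). SP against INT gave Tpx2 (1.26 ± 0.31) and Cenpa (1.06 ± 0.21) in Ebi3L (1.81% of all genes were higher), Cenpa (1.39 ± 0.23) and Ndc80 (1.14 ± 0.28) in yfp (1.85%), and 0 in DKO sources (2.01% in either direction; 0 unadjusted in edgeR, DESeq2 0). DP against SP gave Plk4 in DKO (0.99 ± 0.30, adjusted p = 0.0454; 3.77% of all genes were higher), Cenpa in Ebi3L (0.83 ± 0.20, adjusted p = 0.0333; 1.24%) and 0 in yfp sources (1.21% in either direction; 0 unadjusted in edgeR, DESeq2 0). None of these single calls held in every fit without 1 source: without Ebi3L source 2 or 3, INT against NEG gave 0 and DP against SP gave 0, without yfp source 2, SP against INT gave 6, and without DKO source 1, DP against SP gave 6.

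Cenpa was called at more of these steps than any other of the 48 genes. It stood at 319, 507 and 557 CPM in DP of Ebi3L sources, against 42.1, 53.3 and 63.6 CPM in NEG, and rose by 3.15 ± 0.22 (adjusted p = 9.18e-08). In yfp sources it stood at 432, 410 and 578 CPM in DP, against 63.2, 86.8 and 65.3 CPM in NEG, and rose by 2.74 ± 0.24 (adjusted p = 2.78e-06). The 3 libraries of each group lay close together and far from the other group. Along the populations of yfp sources, source 1 had 29.9, 63.2, 136, 291 and 432 CPM from NDLN to DP.

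Racgap1 differed least between DP and NEG of the 48 genes, by the median over sources. DP was above NEG in 10 of 12 sources, with a median difference of 0.45 and a range of -0.36 to 1.61. It stood at 262, 358, 184 and 275 CPM in DP of DKO sources, against 190, 360, 167 and 129 CPM in NEG, and differed by 0.42 ± 0.19 (adjusted p = 0.0761). In Ebi3L sources it stood at 222, 98.5 and 82.6 CPM in DP, against 159, 96.9 and 106 CPM in NEG, and differed by 0.09 ± 0.17 (adjusted p = 0.73). In yfp sources it rose by 0.70 ± 0.25 (adjusted p = 0.0413), with 323, 261 and 111 CPM in DP, against 238, 124 and 73.3 CPM in NEG. Populations overlapped in all 3 genotypes, and levels followed the batch: they ran from 73.3 to 111 CPM in the 15 libraries of batch 3, from 102 to 323 CPM in the 35 of batch 1 and from 122 to 385 CPM in the 10 of batch 2. The part of the batch in the spread of Racgap1 was not tested.

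**Figure D4:**
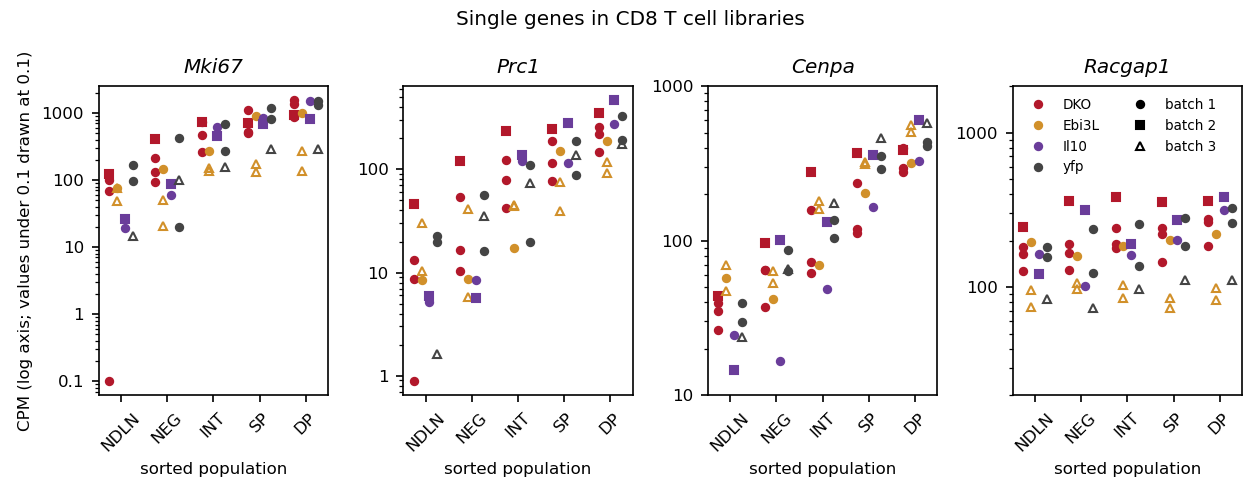
CPM on log axes (vertical) of Mki67, Prc1, Cenpa and Racgap1 in each CD8 library along the populations NDLN to DP (horizontal), coloured by genotype with batch by marker, open triangles for batch 3; values under 0.1 CPM are drawn at 0.1. Mki67, Prc1 and Cenpa climb towards DP, whereas Racgap1 stays between 73.3 and 385 CPM. Its batch 3 libraries lie below the others except in NEG, at 73.3 to 106 CPM against 102 to 360 CPM.

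Prc1, the bundling protein of the midzone, and Top2a were the genes most like the rest of the list over all CD8 libraries. The Pearson r of each with the mean log2 CPM of the other 47 members was 0.961 over the 60 libraries, where the median over members was 0.890 and the lowest was 0.456, for Racgap1. In DP of Il10 sources Prc1 stood at 471 and 275 CPM, against 5.65 and 8.51 CPM in NEG. Over the 30 Treg-series libraries the median r was 0.946, from 0.639 for Ect2 to 0.982 for Top2a. Within CD8 batches the median r was 0.906 in batch 1, 0.913 in batch 2 and 0.929 in batch 3, and Racgap1 was at 0.759, 0.65 and 0.23. In batch 1 Racgap1 was not the lowest, since Anln was at 0.736 and Ect2 at 0.743, and Prc1, at 0.948, was behind Birc5 at 0.989. Libraries share depth, batch and sort, so these values are descriptions.

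Genotype was compared with yfp in each CD8 population, to ask whether loss of IL10, IL35 or both from Tregs went with other levels in CD8 cells. None of the 48 genes passed in any of the 15 comparisons, where at most 0.00811% of all genes passed. Without the filter on low counts, however, 25 passed for Il10 in NEG and 16 in NDLN, 14 for Ebi3L in INT, 11 for DKO and 8 for Ebi3L in SP, 0 for each in DP and 0 to 3 in the other comparisons. The share of all genes that passed in those fits is not given here, so their counts are not read as particular to the 48 genes. The 15 comparisons share the yfp libraries of a population. Some sets also join genotypes (DKO 1 with yfp 1, and Ebi3L 2 and 3 with yfp 2 and 3); with the set in place of the batch, 0 passed in each. In 9 of the 18 genotype comparisons of this text, the sign of the median changed under at least 1 alternative. In DP, the median log2 fold change was -0.16 in DKO, -0.59 in Ebi3L and 0.02 in Il10 sources, with 4, 0 and 28 of 48 above 0. At an unadjusted p under 0.05 edgeR gave 3, 29 and 0 genes in that order, all lower, and DESeq2 called 0 in each. Within shared batches the mean over the 48 genes in DP differed from yfp by -0.25 in DKO (1 batch), by -0.62 and -0.53 in Ebi3L (2 batches) and by 0.09 in Il10 sources (1 batch).

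In SP, medians were -0.64 in DKO (9 unadjusted in edgeR, DESeq2 1), -0.62 in Ebi3L (6 and 0) and -0.46 in Il10 sources (2 and 0). In INT they were 0.25, -0.58 and -0.27 in that order, with 0, 3 and 1 unadjusted and 0 by DESeq2 in each. In NEG they were -0.33, -0.92 and -2.31 in that order, with 1, 0 and 14 unadjusted and 0, 0 and 4 by DESeq2. In NDLN they were -0.43, 0.53 and -2.43, with 1, 1 and 19 unadjusted and 0, 0 and 6 by DESeq2. Within the 1 batch that Il10 and yfp share, the mean over the 48 genes differed by -3.56 in NDLN and by -1.05 in NEG. For Ebi3L the 2 shared batches went opposite ways in NDLN (-0.77 and 2.57).

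By group means over the 48 genes, Il10 sources lay below yfp sources in NDLN and NEG, not in INT, SP or DP. Single sources overlapped in NDLN and in NEG. In NEG each Il10 source was above yfp source 2, and in NDLN Il10 source 1 was above yfp source 3. The fitted medians, which allow for batch, were below 0 in INT and SP too. All these values rest on 2 libraries per population. In NDLN, 7 of the 48 genes had 0 counts in both. Melk stood at 0 and 0 CPM in NDLN of Il10 sources, against 14.2, 8.60 and 0 CPM in yfp sources, at least 56.7-fold lower by group means against the floor. Bub1 stood at 0 and 0 CPM, against 2.30, 18.4 and 0 CPM in yfp sources, at least 51.6-fold lower. In both genes 1 yfp library was at 0 too, so the groups overlapped, and neither passed. Without DKO source 1, 10 genes passed for DKO in SP. Without Il10 source 2, 6 passed for Il10 in NEG, but that fit holds a single Il10 library, whose spread is assumed to be that of the other genotypes and whose batch 2 has no yfp library. Without any other source, 0 passed in these 2 comparisons.

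The change from NEG to DP was also compared between genotypes, with the source as a block. None of the 48 genes passed for DKO, Ebi3L or Il10 minus yfp, where 0% of all 13788 genes did. At an unadjusted p under 0.05 edgeR gave 0, 0 and 9 genes, and DESeq2 called 0, 0 and 5. The medians were -0.49, -0.21 and 1.52. Without Il10 source 2, 7 genes passed for Il10, in a fit with a single Il10 source whose spread is assumed to be that of the other genotypes.

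**Figure D5:**
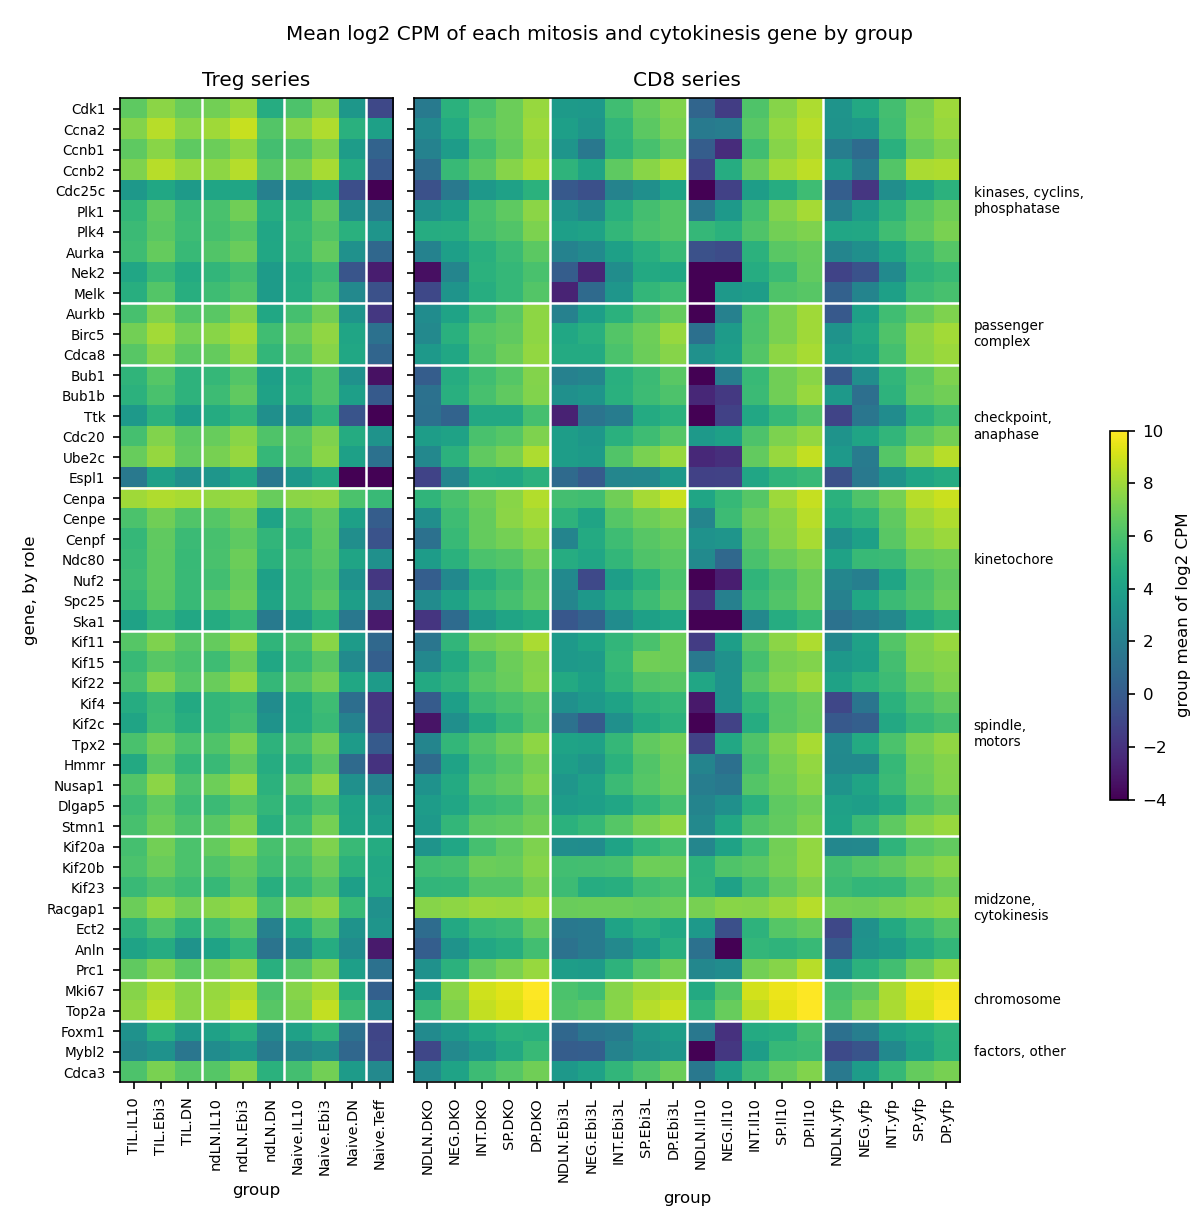
Group mean of log2 CPM (colour) of each of the 48 genes, ordered by role (vertical), in the 10 Treg-series groups and the 20 CD8 groups (horizontal). Within a gene, colours compare groups of 1 series; Teff and naive DN Tregs are the darkest Treg columns and NDLN and NEG the darkest CD8 columns (dark is low), and Racgap1 is nearly even across the CD8 groups.

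The genes outside the list whose group means were most like the mean of the 48 were largely cell division genes too. Over the 10 Treg-series groups and 11179 genes, Pearson's r was 0.997 for Cks2, Spc24 and Ncapg, 0.996 for Clspn, 0.995 for Pbk and 0.994 for Fignl1, Haus3 and Ckap2. Over the 20 CD8 groups and 11192 genes, it was 0.989 for Rrm2, 0.986 for Casc5, 0.984 for Sgol1, 0.983 for Tacc3, 0.973 for Pif1 and Rad54b, 0.972 for Sapcd2 and 0.971 for Fam64a. Cks2 is a subunit of cyclin-dependent kinase complexes, Spc24 the partner of Spc25, and Rrm2 a subunit of ribonucleotide reductase. No gene was among the 8 most alike in both series.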

How the data were processed

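Raw counts per gene are as the authors deposited them. Alignment to mm10 with STAR and counting with featureCounts of Subread come from the submitters' processing notes, which also name limma; no version and no strand setting is named in the sources used here, and reads of overlapping genes on opposite strands cannot be told apart. CPM were computed here from library totals. Tests used edgeR 4.0.16 (robust quasi-likelihood F test, TMM scaling, filterByExpr, Benjamini-Hochberg over all genes tested, threshold 0.05) in R 4.3.3. The Treg series was fitted at once with batch as a term, CD8 populations within a genotype and genotypes within a population with batch, and genotype differences of DP minus NEG with the source as a block. SE is the fold change divided by the square root of F.

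The members and lists were chosen with earlier results of these data known. Named are, among members that passed, at most 4 with the largest and 2 with the smallest change in each comparison and 10 lead genes; Cenpa, Racgap1, Kif15, Prc1 and the genes of short counts were named after their values were seen.

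The labels give each Treg batch every group once, so the batch pairs these libraries: deviations from group means had a median r of 0.1 over 135 pairs of the same batch (lowest 0.01) and of -0.08 over 270 other pairs. For CD8 sets the medians were 0.22 against -0.17 (yfp), 0.1 against -0.03 (DKO) and 0.12 against -0.13 (Ebi3L). Of same-set pairs, 27 of 30, 20 of 40 and 18 of 30 were over 0.1, against 66 of 135 same-batch pairs in Tregs. The sets thus pair CD8 libraries no less than the batch pairs Treg libraries. The population fits still leave the set out, and the set as a block was run there only as an alternative. Other alternatives were DESeq2 1.42.0, no TMM, no filter on low counts, no batch term, a larger offset and leaving out each replicate or batch. Over 95 replicate pairs, chi-square per gene was 34.7 to 651, so no pair agreed within sampling noise. Floors cover counting error only.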

Additional observations from a re-analysis of the deposited data

Results flagged for a closer look

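The 48 genes and their mean were examined in each DKO population, the groups with 4 libraries, and 9 of these 245 sets of 4 values held a library far from the other 3; chance gives about 1 in 20. All 9 were in NDLN or DP, and values are log2 CPM. In NDLN of DKO sources, library 1 was low for Ccna2 (-2.94, group up to 5.43), Cdca8 (1.04, group up to 4.47), Cenpe (-1.36, group up to 4.95) and Mki67 (-5.26, group up to 6.96). In the same group, library 2 was low for Plk4 (4.15, group up to 4.87) and high for Kif2c (3.41, group down to -5.62). In DP of DKO sources, library 1 was high for Kif15 (7.63, group from 7.26), and library 3 was low for Hmmr (6.28, group up to 7.40) and Kif20b (6.88, group up to 7.70).

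The fold change over DN Tregs differed between tumour and ndLN by the test of the difference itself (edgeR, Benjamini-Hochberg adjusted). For IL10 Tregs the difference, tumour minus ndLN, was -1.51 for Plk4, -1.13 for Cenpa, -2.20 for Spc25 and -1.79 for Kif15. For Ebi3 Tregs it was -2.06 for Kif15.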

How the results depend on the processing

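No named gene reversed its direction under the alternatives run, but 26 of 437 medians over the 48 genes took the other sign, in 13 comparisons in each of which 0 genes had passed. With TMM factors in place of library totals, 6 of 20 CD8 groups and 0 of 10 Treg-series groups changed rank in the order of mean levels. Counts of the 48 genes are given as reported and then as changed. With DESeq2 they were, for IL10 against Ebi3 Tregs, 0 and 1 in naive sources, 0 and 1 in ndLN and 1 and 3 in tumour; for TIL Ebi3 against DN 0 and 1; for ndLN against naive DN 1 and 2; and for TIL against ndLN Ebi3 0 and 1. In CD8 cells DESeq2 gave 2 and 4 (NEG against NDLN), 0 and 2 (INT against NEG), 2 and 4 (SP against INT) and 25 and 38 (DP against NEG) in yfp; 7 and 16 (NEG against NDLN), 0 and 6 (INT against NEG) and 1 and 2 (DP against SP) in DKO; 3 and 11 (INT against NEG) and 2 and 6 (SP against INT) in Ebi3L. Against yfp it gave 0 and 6 in NDLN and 0 and 4 in NEG of Il10, 0 and 1 in SP of DKO, and 0 and 5 for DP minus NEG of Il10.

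Without TMM, ndLN IL10 against Ebi3 went to 1, and DP against SP to 0 in DKO and in Ebi3L. Without a filter on low counts, TIL IL10 against Ebi3 went to 0; yfp DP against NEG to 16; DKO NEG against NDLN to 2 and DP against SP to 0; and Ebi3L to 4, 33, 29 and 8 over the 4 steps from NDLN to DP. Against yfp that setting gave 1 (DKO) and 16 (Il10) in NDLN, 3 (Ebi3L) and 25 (Il10) in NEG, 1 (DKO), 14 (Ebi3L) and 1 (Il10) in INT, and 11 (DKO), 8 (Ebi3L) and 2 (Il10) in SP. With no replicate block, the batch term, ndLN Ebi3 against DN went to 21, TIL IL10 against Ebi3 to 0, and the tumour minus ndLN differences to 0 for IL10 and 0 for Ebi3. With the set as replicate block, DKO INT against NEG went to 1 and DP against SP to 4, and Ebi3L INT against NEG to 6. The block changed no other count by over 1.5 times. With an offset of 5 counts, which by construction raises low counts most, the highest minus the lowest CD8 group mean was 6.14, against 7.12. The causes of the other changes were not tested. Chosen after seeing the data, leaving out Teff library 2 gave 33 for naive DN against Teff, and leaving out ndLN Ebi3 library 3 gave 21 for ndLN Ebi3 against DN and 0 for its tumour minus ndLN difference.

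Leaving out 1 replicate (a batch in Tregs) gave, as lowest to highest, 5 to 34 for naive DN against Teff, 5 to 38 and 19 to 43 for naive IL10 and Ebi3 against DN, 0 to 2 for naive IL10 against Ebi3, 6 to 22 and 13 to 29 for ndLN IL10 and Ebi3 against DN, 0 to 0 for TIL IL10 against Ebi3, 4 to 14 for TIL against ndLN DN, 0 to 1 for ndLN against naive DN, and 0 to 4 (IL10) and 0 to 0 (Ebi3) for tumour minus ndLN. From NEG against NDLN to DP against SP, and then DP against NEG, it gave 0 to 23, 0 to 1, 1 to 6, 0 to 1 and 8 to 33 in yfp; 1 to 3, 0 to 0, 0 to 0, 0 to 6 and 23 to 45 in DKO; 0 to 1, 0 to 3, 1 to 2, 0 to 1 and 26 to 38 in Ebi3L. Against yfp it gave 0 to 6 in NEG of Il10, 0 to 10 in SP of DKO and 0 to 7 for DP minus NEG of Il10, and 0 in the other genotype comparisons.

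In all, 339 of 441 alternative values stayed within 1.5 times the count or 1 SD, and 102 moved. The 339 do not measure how stable the calls are. Shares of all genes are not given for the alternative fits, so a moved count is not read as particular to these genes. Many of the comparisons had no gene called, and most of these stayed so in every fit without 1 replicate. Where genes had passed, counts could move widely, as from 35 to 5 for naive IL10 against DN Tregs. For DP against NEG they went from 25 to 8 in yfp sources, but from 39 to no lower than 26 in Ebi3L sources. Genes with at most 3 counts in a library were not detectable beyond counting error at this depth.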
